A study of Mus musculus with 2 samples.

Results

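The barcodes described here are the few cells in a single-cell survey of liver leukocytes that carried RNA of the basophil and mast cell genes Mcpt8, Ms4a2, Fcer1a, Cpa3 and Cd200r3. A barcode was taken when the unique molecular identifiers (UMIs, counted RNA molecules) of these 5 genes summed to at least 3, with 0 UMIs of the T cell genes Cd3d, Cd3e and Cd3g and 0 of the B cell gene Cd79a. The rule found 59 of 12618 usable barcodes (0.468%): 37 of 6872 in the WT library and 22 of 5746 in the Vsig4 KO library. The cells were viable, CD45-positive single cells sorted from mouse livers enriched for metastases of B16F10, a melanoma line, after collagenase and DNase digestion. One group was WT and the other Vsig4-/- (Vsig4 KO), and mice of both carried the tumour; strain, age, sex and the number of mice pooled are not given in the labels. There was 1 library per genotype, so no test between genotypes was possible, and all intervals cover counting error only.

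Basophils are rare circulating granulocytes and mast cells are their tissue-resident counterparts. Both bind immunoglobulin E through the high-affinity receptor FceRI, store histamine and proteases in granules, and release cytokines such as interleukin 4 (IL-4) and IL-13 when stimulated. They are told apart in mice by their proteases and growth factor receptors: basophils express the protease Mcpt8 and respond to IL-3, whereas mast cells depend on the receptor Kit and express chymases and tryptases such as Mcpt4, Cma1 and Tpsb2. VSIG4 is a complement receptor of resident liver macrophages, and the series title asks how it acts on T cells through CD5. Vsig4 had 0 UMIs in these barcodes in both libraries, so it gives no check of the genotype here, and Cd5 was also at 0.

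Upstream sequences are shown because the cells also carried Gata2, the transcription factor of the mast cell and basophil lineage that binds GATA motifs. Those of the rule genes Ms4a2, Fcer1a, Cpa3 and Cd200r3 are printed, with that of Prss34, a basophil gene outside the rule. The remaining rule gene, Mcpt8, is not printed and its count is given below. In each sequence of 250 bases that ends at the annotated transcription start (RefSeq, GRCm38.p6, gene strand), capitals mark the motif AGATAA, the motif TGATAA, the motif AGATAG or the motif TGATAG on either strand. The sequences lie at chr19:11623720-11623969 (Ms4a2, minus strand), chr1:173227230-173227479 (Fcer1a, minus), chr3:20242182-20242431 (Cpa3, minus), chr16:44943428-44943677 (Cd200r3, plus) and chr17:25298144-25298393 (Prss34, plus).
Ms4a2: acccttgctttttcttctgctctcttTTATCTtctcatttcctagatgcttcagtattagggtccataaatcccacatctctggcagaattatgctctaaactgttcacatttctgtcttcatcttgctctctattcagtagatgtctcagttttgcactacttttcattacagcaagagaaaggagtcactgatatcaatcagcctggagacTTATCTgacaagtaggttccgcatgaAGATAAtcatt
Fcer1a: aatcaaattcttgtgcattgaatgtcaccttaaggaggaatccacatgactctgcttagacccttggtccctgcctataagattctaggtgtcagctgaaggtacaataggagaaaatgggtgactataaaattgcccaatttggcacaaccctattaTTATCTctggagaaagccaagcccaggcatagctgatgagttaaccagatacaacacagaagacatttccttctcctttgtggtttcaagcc
Cpa3: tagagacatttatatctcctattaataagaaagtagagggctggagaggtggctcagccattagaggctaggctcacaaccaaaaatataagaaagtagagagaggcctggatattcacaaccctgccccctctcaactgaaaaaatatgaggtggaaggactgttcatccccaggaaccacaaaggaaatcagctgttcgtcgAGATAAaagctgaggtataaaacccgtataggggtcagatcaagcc
Cd200r3: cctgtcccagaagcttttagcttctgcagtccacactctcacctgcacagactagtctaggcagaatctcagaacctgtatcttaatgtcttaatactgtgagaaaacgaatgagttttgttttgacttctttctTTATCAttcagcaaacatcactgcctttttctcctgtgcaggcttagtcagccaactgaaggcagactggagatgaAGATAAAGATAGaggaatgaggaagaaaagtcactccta
Prss34: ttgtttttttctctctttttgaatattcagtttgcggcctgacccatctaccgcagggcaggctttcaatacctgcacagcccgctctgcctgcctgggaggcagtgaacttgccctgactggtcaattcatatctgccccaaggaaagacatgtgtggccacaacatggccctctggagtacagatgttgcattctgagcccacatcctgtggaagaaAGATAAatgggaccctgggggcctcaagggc
Ms4a2 and Cd200r3 held 3 matches each, and Fcer1a, Cpa3 and Prss34 held 1 each. Matches began 224, 37 and 11 bases before the start in Ms4a2, 92 in Fcer1a, 46 in Cpa3, 115, 39 and 33 in Cd200r3 and 31 in Prss34. The Mcpt8 sequence held 0 matches, that of Hdc held 1 (221 bases before the start), and the 2 alternative starts of Gata2 held 0. Over 32851 upstream sequences of this length, 26.5% held at least 1 match and 1.35% held at least 3. A match is a description of the letters only.

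The marker sum ranged from 3 to 20 (median 8) in WT and from 5 to 27 (median 10) in Vsig4 KO. Among the rule genes, Fcer1a and Ms4a2, the alpha and beta chains of FceRI, had 69 and 45 UMIs in WT and 34 and 39 in Vsig4 KO. Cpa3, a granule carboxypeptidase, had 61 and 62 UMIs, Mcpt8 53 and 54, and the activating receptor gene Cd200r3 85 and 75. A Mcpt8 UMI was found in only 18 of 37 WT and 14 of 22 Vsig4 KO barcodes. The barcodes were chosen by these UMI sums, so the values are given as a description only. At the threshold, 4 WT barcodes had a sum of exactly 3, of which 1 had 0 UMIs of the histamine enzyme gene Hdc and 2 carried 38 and 241 Lyz2 UMIs. Just below it, 3 WT barcodes and 1 Vsig4 KO barcode had a sum of 2 without lymphocyte genes, and 2 of the WT ones had 21 and 28 Hdc UMIs. The lymphocyte genes removed 1 WT and 6 Vsig4 KO barcodes with a sum of at least 3, of which 1 and 5 had at least 5 Hdc UMIs.

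Depth was similar in the libraries. The barcodes held a median of 3736 UMIs in WT (1230 to 15575) and 4257.5 in Vsig4 KO (3395 to 8750), 165507 and 101400 UMIs in all, with medians of 0.609% and 0.372% mitochondrial UMIs. The libraries shared 54 barcode sequences, none of them among the 59. Some WT barcodes stood apart: 3 of 37 had at least 3 UMIs over 16 genes of other cell types, against 0 of 22 in Vsig4 KO. They held 15575, 11161 and 9687 UMIs, with 3, 38 and 241 UMIs of the myeloid gene Lyz2, and the one with 11161 also held 44 C1qb and 172 Cd74 UMIs. All 3 also had Hdc (31, 48 and 40 UMIs). A further WT barcode, with a marker sum of 3 in 4259 UMIs, had 0 UMIs of Hdc, Cyp11a1, Ccl3, Ccl4, Ccl6 and Ccl9, and 23 UMIs (0.540%) over 10 genes of haematopoietic progenitors, among them 7 of Cdk6, 7 of Muc13 and 5 of Sox4. No other barcode had more than 5 UMIs of those genes, and a marker sum of at least 5 leaves this one out. Another WT barcode held 41 Cd74 and 22 H2-Ab1 UMIs beside 42 Hdc UMIs, with 2 UMIs over the 16 genes of other cell types. The doublet caller scrublet marked 0 WT and 5 Vsig4 KO barcodes of all usable ones by its own threshold and had not worked, so no barcode was removed as a doublet. Leaving out the highest scores instead would remove 3 WT and 0 Vsig4 KO members.

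The share of these cells was 0.538% of usable WT barcodes (95% Clopper-Pearson interval 0.379 to 0.741) and 0.383% of Vsig4 KO barcodes (0.240 to 0.579). The ratio of Vsig4 KO to WT was 0.711 (0.400 to 1.24), an interval that includes no difference. It was 1.11 with a marker sum of at least 10, so the direction depended on that minimum. Barcodes the lymphocyte genes removed were not spread evenly between the libraries, as given above.

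The label names basophils and mast cells. Hdc, Gata2 and Cyp11a1, outside the rule, are found in both cell types and do not tell them apart. Prss34, a basophil tryptase outside the rule, was found in only 5 of 37 WT and 5 of 22 Vsig4 KO barcodes. The name used below rests on mast cell genes that were not detected, a check with limits given below. Hdc, which makes histamine, had 1311 UMIs in 36 of 37 WT barcodes (lowest 0, median 31, highest 116) and 962 in 22 of 22 Vsig4 KO barcodes (8, 40.5 and 94). Both libraries held it at high levels and the barcodes overlapped. The summed level was 7921 CPM (UMIs of the gene scaled to a common library total, 95% Poisson interval 7498 to 8362) in WT and 9487 (8897 to 10106) in Vsig4 KO, 279-fold and 369-fold above the other barcodes. Gata2 had 198 UMIs in 35 WT barcodes (0, 4 and 21) and 116 in 21 Vsig4 KO barcodes (0, 5 and 17). Cyp11a1, a steroid-synthesis enzyme found in stimulated basophils and mast cells, had 177 (0, 3 and 23) and 145 (2, 4.5 and 21). Each barcode had a UMI of Gata2 or Cyp11a1.

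Defining genes of mast cells were not detected. Of 14 mast cell marker genes, 10 had 0 UMIs in all 59 barcodes, among them the proteases Mcpt1, Mcpt2, Mcpt4, Cma1, Tpsb2 and Tpsab1 and the receptors Mrgprb1 and Mrgprb2. A count of 0 over 266907 UMIs allows up to 11.2 CPM. Kit had 1 UMI in each library. Slc18a2, the granule transporter of histamine, which basophils share, gave most of the remaining UMIs of that list with 66 and 57. The eosinophil genes Prg2, Epx, Ear1, Ear6 and Il5ra were at 0 and Siglecf had 6 and 2 UMIs. The T cell list had 0 UMIs in WT and 2 in Vsig4 KO, but the rule itself set its genes Cd3d, Cd3e and Cd3g to 0. Apart from Cma1, the mast cell protease and Mrgpr genes searched had 0 UMIs in every usable barcode. Their absence therefore could not tell these barcodes from other cells. A Vsig4 KO barcode left out by the rule, with 27 Kit UMIs, also had 0 UMIs of the mast cell proteases. The barcodes are called basophil-marker barcodes below, a label that does not exclude mast cells among them.

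**Figure D1:**
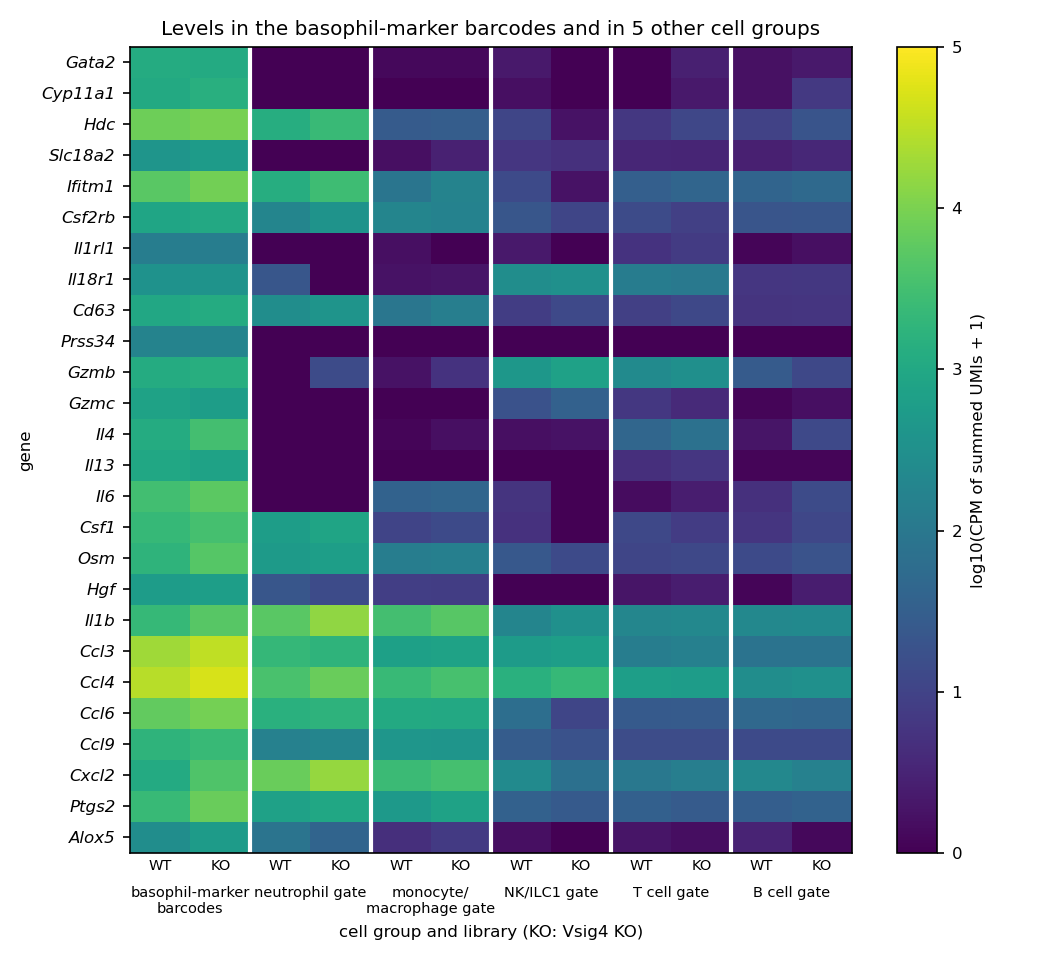
Summed level (colour, log10 of CPM + 1) of 26 genes in the basophil-marker barcodes and in barcodes gated by marker UMIs of 5 other cell groups, WT and Vsig4 KO side by side. Gata2, Cyp11a1, Il13 and Prss34 are near 0 outside the basophil-marker columns, while Il1b and Cxcl2 are as high or higher in the neutrophil gate.

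Against all other usable barcodes, 439 of 1909 genes with at least 20 UMIs (23%) were at least 2-fold higher in both libraries and 73 (3.82%) at least 2-fold lower. Of the basophil marker list without rule genes, 9 of 10 measured genes were past 2-fold, and of the cytokine list 8 of 12. The counts for granule genes (8 of 12), chemokines (4 of 5), cytokine receptors (7 of 13), eicosanoid genes (5 of 5) and early activation genes (19 of 25) were also above that background share, whereas 3 of 15 genes of IgE receptor signalling lay near it. A gene was measured only with at least 20 UMIs in these barcodes themselves, so list genes low in them were not counted. Measured were 12 of 31 granule genes, 12 of 26 cytokines, 5 of 18 chemokines and 13 of 23 cytokine receptors. For eicosanoid genes it was 5 of 18 and for early activation genes 25 of 29. The shares are thus a description only. The highest by fold, beside Hdc, Gata2, Cyp11a1 and Slc18a2, included Slc24a3 (a calcium exchanger), Rab44 (a granule-associated GTPase), Aqp9, Cdh1, Ifitm1 and Acod1. Slc24a3 was 316-fold and 307-fold above the other barcodes, Rab44 128-fold and 227-fold, and Aqp9 107-fold and 177-fold. No test stands behind these folds.

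Receptor genes included those of IL-3, IL-18 and IL-33 signalling. Csf2rb, the shared chain of the IL-3 receptor, was at 864 CPM in WT and 1055 CPM in Vsig4 KO, in 33 of 37 and 20 of 22 barcodes, and its mouse paralogue Csf2rb2 was at 773 and 750 CPM; reads of the 2 near-identical genes may be split. Il18r1 had 58 and 37 UMIs, Il18rap 68 and 43, and Il1rl1, the IL-33 receptor, 22 and 13. Fcer1g, the signalling chain of FceRI, was at 2157 and 1647 CPM, against 1272 and 796 CPM in the other barcodes. Lilr4b, a receptor gene with a near-identical copy (Lilrb4a) whose reads may be split, had 306 UMIs in 36 WT barcodes and 293 in 22 Vsig4 KO barcodes. Cd9, a tetraspanin, had 261 and 215.

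Granule genes ranged from those present in nearly every barcode to those confined to a few. Slc18a2 lay between, in 59.5% of WT and 81.8% of Vsig4 KO barcodes. Srgn, the proteoglycan core of granules, was present in 37 of 37 and 22 of 22 barcodes at 9117 and 8659 CPM, and Cd63, a granule membrane protein, in 35 and 22 barcodes at 1009 and 1174 CPM. Prss34, a basophil tryptase, had 28 UMIs in 5 WT barcodes and 18 in 5 Vsig4 KO barcodes, with 16 and 12 of these in 1 barcode. All 28 Prss34 UMIs of the WT library and 94.7% of those of the Vsig4 KO library lay in basophil-marker barcodes.

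Granzyme genes of cytotoxic lymphocytes were present in a subset. Gzmb had 201 UMIs in 9 WT barcodes (lowest 0, median 0, highest 72) and 138 in 8 Vsig4 KO barcodes (0, 0 and 53). Gzmc had 124 UMIs in 3 WT and 62 in 3 Vsig4 KO barcodes, each of which also had Gzmb, and its highest barcode gave 68.5% and 58.1% of the UMIs. Gzma, the more abundant granzyme gene of the NK and T cells here, had 2 UMIs in each library. In the NK gate Gzmb was at 436 and 720 CPM and Gzmc at 17.4 and 34.8 CPM, against 749 and 611 CPM of Gzmc in the basophil-marker barcodes. Of the Gzmc UMIs of all usable barcodes, 46.4% in WT and 37.1% in Vsig4 KO came from these few barcodes.

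Chemokines were the most abundant products. Ccl4 and Ccl3, chemokines that attract leukocytes, together made up 4.90% of all UMIs of the barcodes in WT and 8.28% in Vsig4 KO. Ccl4 had 4882 UMIs in 36 WT barcodes (lowest 0, median 68, highest 623) and 5059 in 22 Vsig4 KO barcodes (2, 217.5 and 586). Ccl3 had 3236 (0, 68 and 318) and 3337 (12, 151.5 and 308). The ranges overlapped, with the higher medians in Vsig4 KO. Ccl3 was at 19552 CPM (18884 to 20237) and 32909 CPM (31802 to 34045), or 54.1-fold and 122-fold above other barcodes, and 24.0% and 33.2% of all Ccl3 UMIs came from these barcodes. Ccl6 was at 6169 and 9043 CPM and Ccl9 at 1788 and 2308 CPM, both in 36 and 22 barcodes.

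Il6 and Il1b had the most UMIs among the cytokine genes named here. Il6, a pro-inflammatory cytokine, had 506 UMIs in 29 WT barcodes (lowest 0, median 9, highest 60) and 558 in 19 Vsig4 KO barcodes (0, 24 and 74). These barcodes held 60.2% and 63.0% of all Il6 UMIs in the libraries. Il1b, another pro-inflammatory cytokine, had 377 UMIs in 14 WT barcodes (0, 0 and 132) and 521 in 12 Vsig4 KO barcodes (0, 2 and 214), and was only 2.05-fold and 4.43-fold above the other barcodes. Csf1, the macrophage growth factor, had 363 UMIs in 34 and 339 in 20 barcodes, 46.8% and 54.2% of the library totals. Hgf, the hepatocyte growth factor, had 97 and 65 UMIs, 51.9% and 47.4% of the totals. Basophil-marker barcodes, under 1% of cells, thus gave a large share of the counted RNA of Il6, Csf1 and Hgf, but not of Il1b. The sort was on CD45, so cells without CD45 were not measured. Il5, Il3, Il9, Il2, Csf2, Ifng and Areg were at 0.

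Il4 and Il13, neighbouring genes on chromosome 11 (mm10, 53602982 to 53618669 and 53631324 to 53634702, minus strand) that drive type 2 immunity, were distributed unevenly. Il4 had 194 UMIs in 29 WT barcodes (lowest 0, median 1, highest 66) and 318 in 16 Vsig4 KO barcodes (0, 1 and 89). Most barcodes held 0 or 1 UMI: exactly 1 was found in 16 WT and 9 Vsig4 KO barcodes. At least 10 UMIs were found in 4 WT barcodes (13, 30, 33 and 66) and 5 Vsig4 KO barcodes (34, 56, 61, 65 and 89), which held 73.2% and 95.9% of the Il4 UMIs. All 9 of them also had Il13, and 3 of 4 and 5 of 5 had Nr4a3, a gene induced by receptor signalling. Of the barcodes with fewer Il4 UMIs, 9 of 33 and 6 of 17 had Il13. Nr4a3 was found in 10 of 33 and 7 of 17 of them. These counts were not matched for depth, and the minimum of 10 was chosen after the values were seen. Il13 had 154 UMIs in 13 WT barcodes (0, 0 and 53) and 78 in 11 Vsig4 KO barcodes (0, 0.5 and 24), 77.0% and 53.8% of the library totals.

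Shares of barcodes with a UMI were compared at a fixed depth of 1000 UMIs per barcode, at which no basophil-marker barcode was left out. Il4 was then found in 29.7% of WT and 36.4% of Vsig4 KO barcodes (78.4% and 72.7% at full depth), Il13 in 18.9% and 22.7%, and Il6 in 75.7% and 86.4%. A background level was read from the B cell gate, with medians of 2484 and 2863 UMIs at full depth. It does not hold free RNA alone. The gate included Vsig4 KO barcodes with 9 and 13 Cd79a UMIs beside 36 and 29 Hdc UMIs. At 1000 UMIs, with 15 and 16 shallower B barcodes left out, Il4 was found in 0 of 1805 WT B barcodes, which allows up to 0.166%. In Vsig4 KO it was found in 3 B barcodes (0.157%). Il6 was found in 0.332% and 0.210% of B barcodes and Hdc in 0.499% and 0.472%. The values in the basophil-marker barcodes lay far above these.

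**Figure D2:**
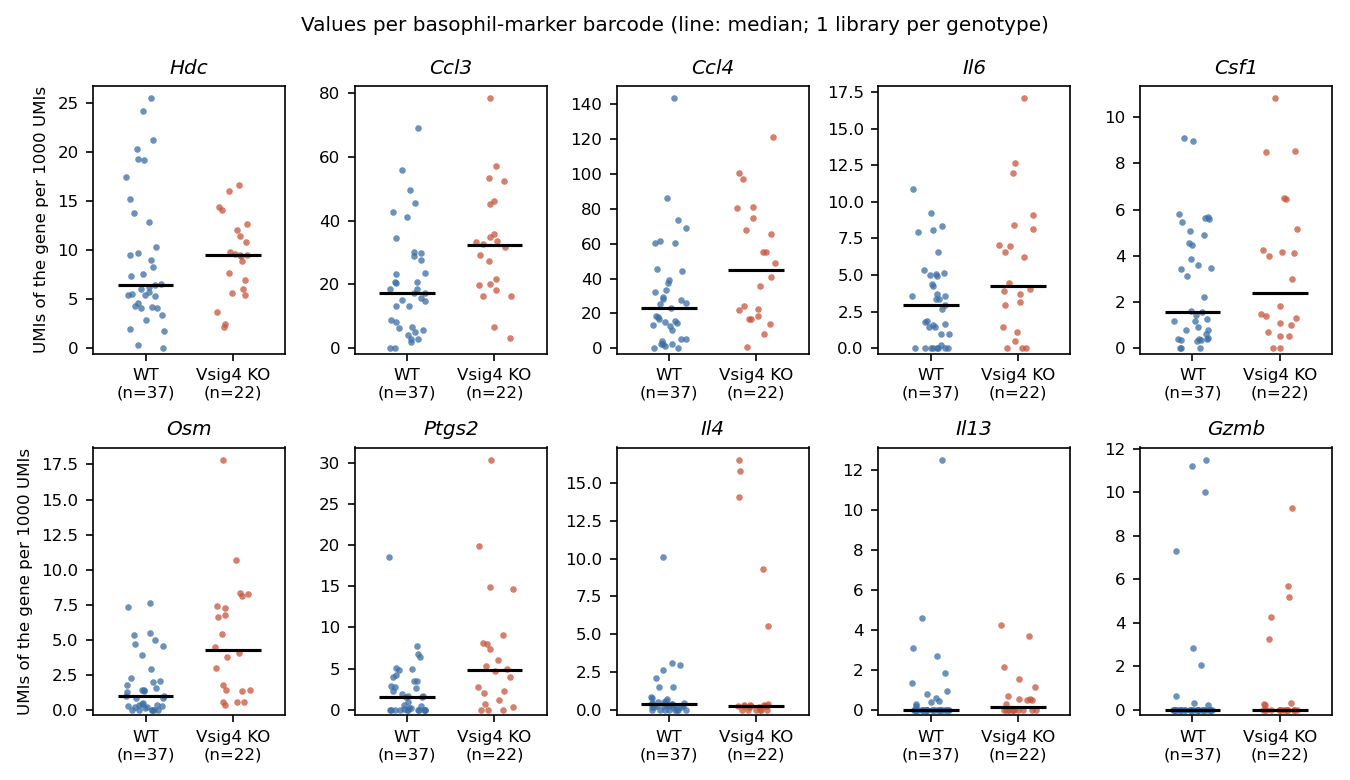
UMIs of 10 genes per 1000 UMIs in each of 37 WT and 22 Vsig4 KO basophil-marker barcodes (points), with the median as a line. Hdc, Ccl3, Ccl4, Il6, Csf1 and Osm are spread over most barcodes, while Il4, Il13 and Gzmb are high in a few and low or at 0 in the rest.

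Within the basophil-marker barcodes, 98 of 754 genes with at least 50 UMIs (13%) were at least 1.5-fold higher in Vsig4 KO than in WT and 117 (15.5%) at least 1.5-fold lower, with a median log2 ratio of -0.05. Genes of cytokines, chemokines, eicosanoid synthesis and early activation were past the fold more often upward than downward. Of 8 measured cytokine genes 5 were past 1.5-fold higher and 0 lower (median log2 ratio 0.73), of 5 chemokines 3 and 0 (0.75), of 3 eicosanoid genes 2 and 0 (0.96), and of 25 early activation genes 13 and 0 (0.59). These shares stood above 13%, and the lists were chosen with earlier results known. Granule genes (0 of 6 in either direction, median 0.13), the histamine pair Hdc and Slc18a2 (0 of 2, 0.38) and receptors for IL-3, IL-18 and other cytokines (1 of 5 higher, 0 lower, 0.06) showed no such excess. Of 8 lineage transcription factors 2 were higher and 0 lower (-0.13), and Gata2 had a ratio of 0.956 (0.754 to 1.21).

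Il4 was 2.68-fold higher in Vsig4 KO (2.23 to 3.22), at 1172 CPM in WT and 3136 CPM in Vsig4 KO. The difference came from the few barcodes with at least 10 UMIs, since both medians were 1 UMI, and over all alternatives the ratio ranged from 2.32 to 3.31. In other usable barcodes Il4 was at 15.5 and 29.2 CPM, a ratio of 1.88. Il13 had a ratio of 0.827 (0.621 to 1.09), so the pair did not move together in the sums. Osm, a cytokine of the IL-6 family, had 291 UMIs in 31 WT barcodes (lowest 0, median 3, highest 32) and 498 in 22 Vsig4 KO barcodes (2, 25 and 69), a ratio of 2.79 (2.41 to 3.24). In the other barcodes the Osm ratio was 0.733. Those barcodes differed in make-up: 986 of 6872 usable WT barcodes and 422 of 5746 in Vsig4 KO passed the monocyte and macrophage gate. Ratios over the other barcodes are not matched for this, and its part in them was not tested. Il6 had a ratio of 1.80 (1.59 to 2.03), Csf1 1.52 (1.31 to 1.77) and Hgf 1.09 (0.786 to 1.51). Lif had 2 UMIs in WT and 23 in Vsig4 KO, a ratio of 18.8 (4.64 to 164), and Tnf 32 and 9, a ratio of 0.459 (0.193 to 0.984). Lif was found in only 2 of 37 WT and 5 of 22 Vsig4 KO barcodes, and Tnf in 8 and 5. Both genes were below the minimum of 50 UMIs for comparing the libraries, so neither counts as different.

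Ptgs2, the inducible cyclooxygenase of prostaglandin synthesis, had 394 UMIs in 26 WT barcodes (lowest 0, median 5, highest 55) and 731 in 19 Vsig4 KO barcodes (0, 20 and 128), a ratio of 3.03 (2.67 to 3.43). Alox5, the first enzyme of leukotriene synthesis, had a ratio of 1.95 (1.30 to 2.95), and its partner Alox5ap 1.11 (0.946 to 1.31). Ccl3 and Ccl4 had ratios of 1.68 and 1.69, Ccl6 1.47 and Ccl9 1.29. Il1b had a ratio of 2.26 (1.97 to 2.58) and Cxcl2 3.83 (3.22 to 4.57), but 1 barcode gave 68.1% of the Cxcl2 UMIs in WT and 50.7% in Vsig4 KO. Among early activation genes, Ier3 had a ratio of 2.14, Nfkbia, the NF-kB inhibitor, 2.44, Egr1 1.66, and Nr4a3 0.972 (0.795 to 1.19). Genes named for the highest ratios by the size rule were Hilpda, Dnase2b, H1f2, Tagap, Cxcl2, Gm20186, Ehd1, Prdx6, Ddit4 and Os9. Of these, 1 barcode gave over 50% of the Vsig4 KO UMIs of Hilpda (50.7%), Dnase2b (73.9%) and Tagap (70.5%), whereas Ehd1 was found in 14 WT and 18 Vsig4 KO barcodes with at most 5 UMIs.

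Several heat-shock genes were lower in Vsig4 KO. Hspa1b, induced by heat and by cell dissociation and nearly identical to Hspa1a, had 429 UMIs in 21 of 37 WT barcodes (lowest 0, median 2, highest 72) and 131 in 8 of 22 Vsig4 KO barcodes (0, 0 and 32), a ratio of 0.498 (0.407 to 0.607). The other usable barcodes showed a ratio of 0.637, with an Hspa1b UMI in 51.2% of WT and 35.8% of Vsig4 KO barcodes. Of 11 measured stress genes 1 was past 1.5-fold higher and 4 lower (median log2 ratio -0.41), with Hsp90aa1 at 0.358 (0.284 to 0.448) and Dnajb1 at 1.23 (1.04 to 1.44).

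Levels of several genes in barcodes with and without Hspa1b were compared within each library. The WT barcodes with at least 3 UMIs over genes of other cell types had 1, 31 and 29 Hspa1b UMIs. The WT barcode with 0 Hdc UMIs had 20. All of these therefore lie among the WT barcodes with Hspa1b, and their part in the WT values below was not tested. In WT, Ccl3 was at 11100 CPM in the 21 barcodes with Hspa1b and 33121 CPM in the 16 without, and in Vsig4 KO at 21002 CPM in 8 and 38765 CPM in 14. Il6 was at 1638 and 5337 CPM in WT and 1496 and 7473 CPM in Vsig4 KO, again lower where Hspa1b was present. Nr4a3 was found in 4 of 21 WT barcodes with Hspa1b and 9 of 16 without, and in 2 of 8 and 10 of 14 in Vsig4 KO. Csf1 was at 1902 and 2660 CPM in WT, but at 3739.6 and 3148 CPM in Vsig4 KO, higher there in the barcodes with Hspa1b. Gata2 was at 1019.8 and 1479.8 CPM in WT and 1167 and 1133 CPM in Vsig4 KO. The identity gene Hdc differed less than Ccl3 and Il6, at 7099 and 9241 CPM in WT and 8825 and 9813 CPM in Vsig4 KO. Median depths were 3886 and 3594 UMIs in WT and 3809.5 and 4409 in Vsig4 KO.

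The minimum marker sum also moved the ratios. With a marker sum of at least 10, which 14 WT and 13 Vsig4 KO barcodes reached, the ratio of Vsig4 KO to WT was 1.20 for Ccl3, 1.16 for Ccl4, 1.19 for Il6 and 1.33 for Csf1, all under 1.5-fold. H1f2 then had 1.44 in place of 4.13 and Nr4a3 0.587, past the fold downward. The median log2 ratio of the chemokine list was 0.26 in place of 0.75 and that of the cytokine list 0.45 in place of 0.73. That of the early activation list was 0.19 in place of 0.59. Il4, Osm and Ptgs2 had 2.32, 1.81 and 2.21. With a marker sum of at least 5, Ccl3 and Il6 had 1.53 each. Csf1 ranged from 1.18 to 1.56 over all alternatives, so its place past 1.5-fold depended on the setting.

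Among barcodes with 0 Hspa1b UMIs alone, a comparison added after the data were seen, the ratio of Vsig4 KO to WT was 1.17 for Ccl3, 1.15 for Ccl4, 1.18 for Csf1 and 1.40 for Il6, all under 1.5-fold. It was 2.44 for Il4, 1.98 for Osm and 2.57 for Ptgs2. This subset also leaves out the WT barcodes with at least 3 UMIs over genes of other cell types. It leaves out the WT barcode with 0 Hdc UMIs too, and all of these had Hspa1b. The part of the stress genes in the difference between the libraries was not tested.

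**Figure D3:**
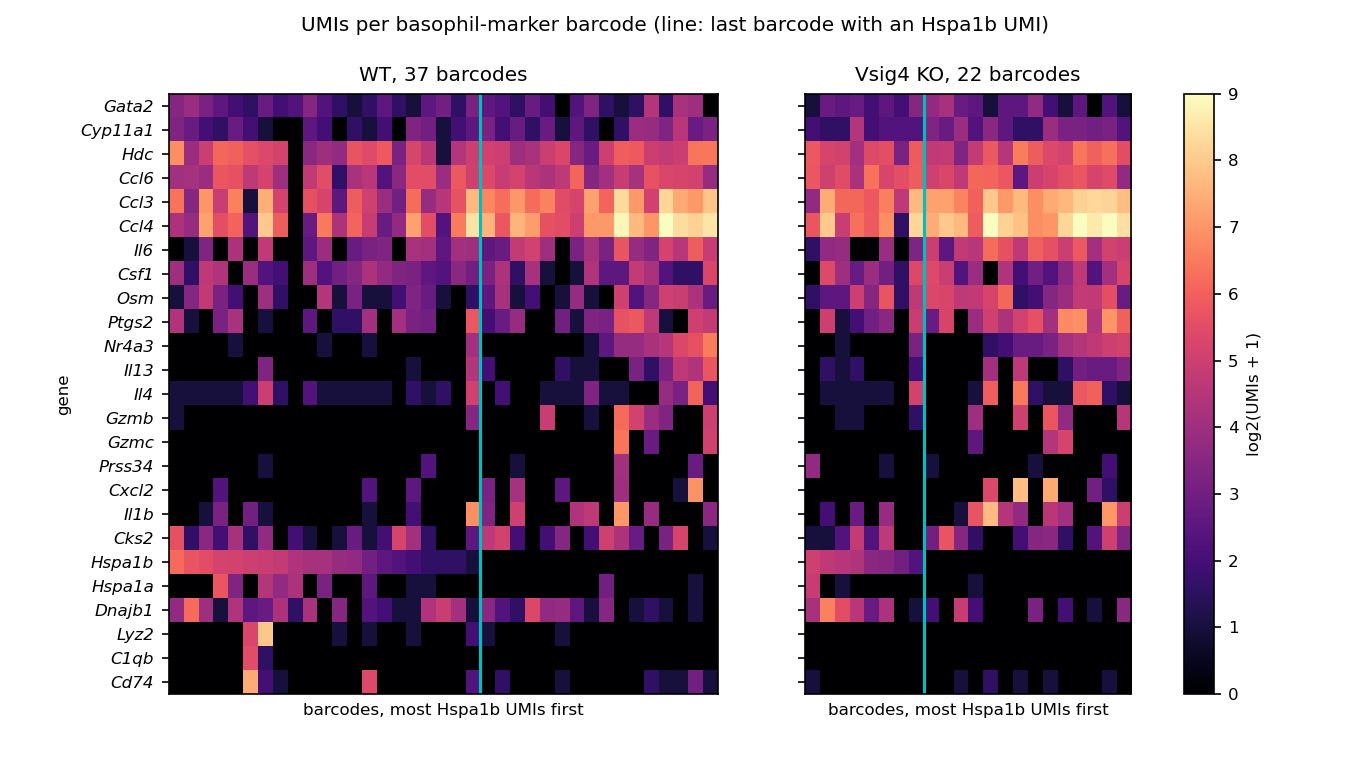
UMIs (colour, log2 of UMIs + 1) of 25 genes in each basophil-marker barcode, ordered by Hspa1b. Barcodes right of the line have 0 Hspa1b UMIs and hold most of the Nr4a3 and Gzmb UMIs of both libraries, and Lyz2, C1qb and Cd74 are high in few WT barcodes only.

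The genes with the lowest ratios of Vsig4 KO to WT included genes of macrophages and antigen presentation. The size rule named Lyz2, Apoe, H2-Aa, Cd74, Psap, Ifitm3, Klf2, S100a6, Rhob and Atp5g3. Lyz2, the macrophage lysozyme, had 287 UMIs in 8 WT barcodes and 0 in Vsig4 KO, at least 58.6-fold lower when the Vsig4 KO sum is set to a floor of 3 UMIs, and 1 WT barcode gave 84.0% of them. Cd74, the MHC class II invariant chain, had 236 and 7 UMIs, with 72.9% of the WT UMIs in 1 barcode, and H2-Aa 78 and 1, with 91.0% in 1 barcode. All 4 measured MHC class II genes were past 1.5-fold lower. The WT barcodes that gave most of these UMIs had at least 3 UMIs over genes of other cell types, as described above. Without all 3 WT barcodes past that minimum, the Cd74 ratio was 0.156 in place of 0.0484. That of Ifitm3 was 0.449 in place of 0.0915. The count of lower genes was then 71 in place of 117, and that of higher genes 69 in place of 98. Without these 3 barcodes the ratio was 1.49 for Ccl3, 1.51 for Ccl4, 1.28 for Csf1 and 1.53 for Il6, while Il4 had 3.16, Osm 2.31 and Ptgs2 2.75. The WT share was then 0.495%.

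Ctse, a cathepsin gene, had 111 UMIs in 33 WT barcodes and 33 in 17 Vsig4 KO barcodes, a ratio of 0.485 (0.319 to 0.721), close to the 0.416 in all other barcodes. Lyn, the kinase that starts FceRI signalling, had 68 and 18 UMIs, a ratio of 0.432 (0.242 to 0.735). Of 7 measured genes of IgE receptor signalling 2 were past 1.5-fold higher and 1 lower. Of 4 measured type I interferon genes 2 were higher and 1 lower, of 4 MHC class I genes 0 and 1, of 5 inhibitory and Fc receptors 2 and 0, and of 16 chemokine receptor and adhesion genes 2 and 1.

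**Figure D4:**
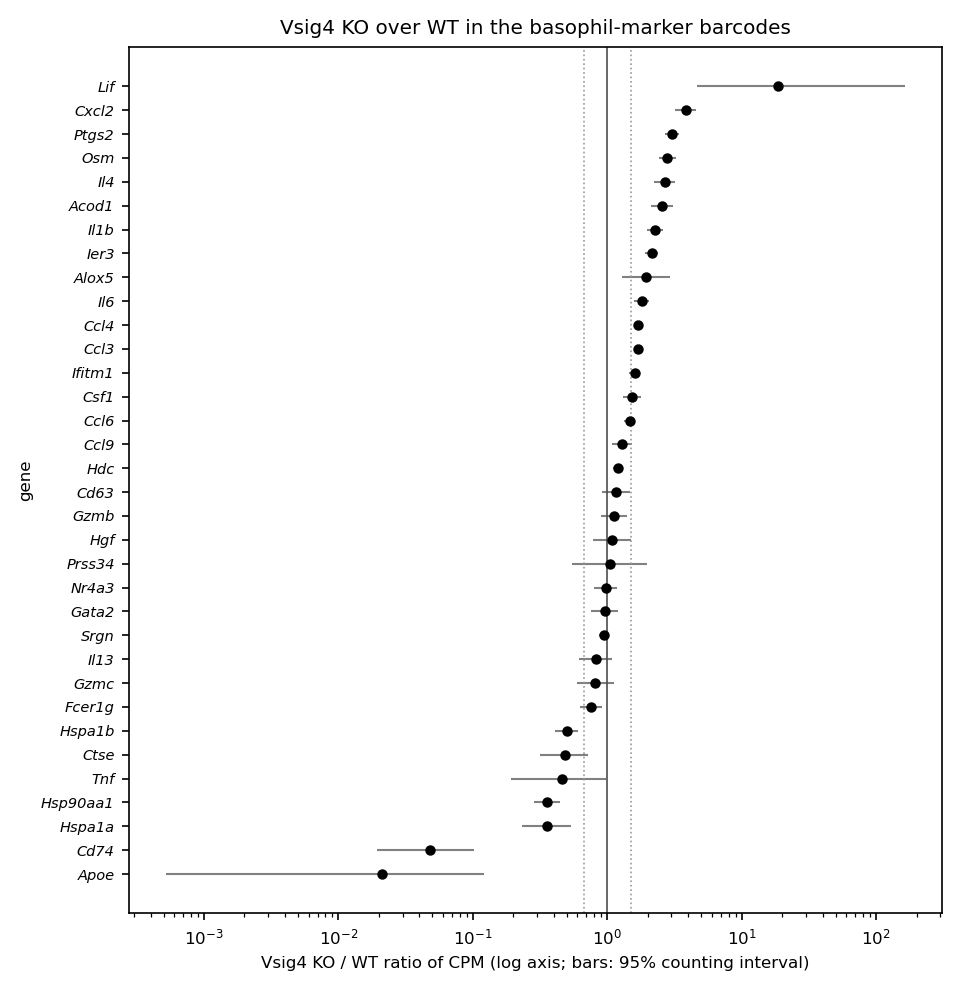
Ratio of Vsig4 KO to WT CPM (log axis) for 34 genes in the basophil-marker barcodes, with 95% counting intervals as bars and dotted lines at 1.5-fold. Osm, Ptgs2 and Il4 lie near 3, granule and identity genes near 1, and Hspa1b, Hsp90aa1, Cd74 and Apoe below 0.5.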

How the data were processed

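Single-cell RNA-seq with 10x Genomics 5′ chemistry was run on 1 WT and 1 Vsig4 KO library. Reads were processed with Cell Ranger 7.1.0 on mm10, per the submitters' processing notes. The deposited matrices hold whole-number UMI counts for 31253 genes in 6929 WT and 5799 Vsig4 KO barcodes, with 28537154 and 25119175 UMIs.

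Barcodes were usable with 200 genes or more, 500 UMIs or more and no more than 10% of UMIs from mitochondrial genes (6872 and 5746). UMIs of the members were summed per library and scaled to CPM, with exact Poisson intervals, and ratios have exact conditional binomial intervals, all at 95%. Since each genotype had 1 library, differences were not tested: genes count as different past 2-fold against other barcodes (at least 20 UMIs) or 1.5-fold between libraries (at least 50 UMIs). Other cell groups were gated by marker UMIs. The ratio script was tested on simulated data. Python 3.11.15, numpy 2.4.6, scipy 1.17.1, pandas 2.3.3 and scanpy 1.11.5 were used. Gene positions come from GENCODE M21, and upstream sequences from RefSeq GRCm38.p6.

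Named genes are list members with at least 20 UMIs, defining genes at 0, the 20 with the highest fold over other barcodes, and the 10 highest and 10 lowest ratios among genes with at least 50 UMIs found in at least 10% of members of 1 library. The members, the 38 lists and the thresholds were chosen with earlier results of these data known. Alternatives changed the marker sum, filters, doublet handling, scaling and weighting.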

Additional observations from a re-analysis of the deposited data

How the results depend on the processing

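With 37 and 22 barcodes and 1 library per genotype, only counting error could be given, and most genes were too low to compare. No paired analysis was possible because each genotype had 1 library. Shares were 0.204% in WT and 0.226% in Vsig4 KO with a marker sum of at least 10, which also gave 292 genes at least 2-fold higher than in other barcodes (439 as reported), and 39 higher and 42 lower in Vsig4 KO (98 and 117). Without barcodes with at least 3 UMIs over genes of other cell types, 71 genes were lower in Vsig4 KO. Among barcodes with 0 Hspa1b UMIs, chosen after seeing the data, 41 were higher and 61 lower. With genes of at least 20 UMIs the counts were 268 and 436, and with at least 1 UMI 2630 and 4684, by the wider set of genes. Genes at least 2-fold lower than in other barcodes (73) numbered 110 without mitochondrial, ribosomal protein and rule genes in the scaling, 118 with barcodes weighted alike, and 154 without the barcode with the most UMIs of each gene. The share of higher genes among those past 1.5-fold was 45.6% and ranged from 36.0% to 49.4%. Of single genes, Hspa1a turned to ratios of 1.16 and 2.49 with marker sums of at least 5 and 10, H2-Aa to 1.03 with at least 10, and Ifitm3 to 1.71 with at least 10 and 4.67 with 0 Hspa1b UMIs; the cause was not tested. In all, 130 values of single genes and lists under an alternative moved beyond the counting interval or, for a list's median, by at least 0.25 (log2), and 484 did not. For shares and counts, 48 further alternative values stayed within 1.5 times the reported count or within the interval of the share, and 15 are those given above.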

Other observations

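Cma1, a chymase gene used as a mast cell marker, had 0 UMIs in the basophil-marker barcodes but 298 UMIs in 177 other WT barcodes and 358 in 178 Vsig4 KO barcodes. It was highest in the NK cell gate, at 133 CPM in WT and 205 CPM in Vsig4 KO, and in the B cell gate it was at 3.34 and 3.52 CPM. The other 8 mast cell protease and Mrgpr genes searched had 0 UMIs in every usable barcode.

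In the Vsig4 KO library 1 barcode of 12808 UMIs had a marker sum of 63 and was left out for 3 UMIs of the Cd3 genes and 1 of Cd79a. It held 45 Cpa3, 27 Kit, 41 Hdc and 32 Cyp11a1 UMIs and 0 UMIs of the mast cell proteases, whereas the 59 barcodes together held 2 Kit UMIs. It was singled out after its values were seen.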
